A study of Mus musculus with 4 samples.

Results

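Transcripts for the machinery that carries proteins into mitochondria were compared between CUGBP1 immunoprecipitates (CUGBP1 IP) and immunoprecipitates with normal IgG (control IgG) from mouse myoblasts. The members were every probe set that names a single gene whose symbol is a *Timm* or *Tomm* name followed by a number, together with *Samm50*, *Mtx1*, *Mtx2*, *Pmpca*, *Pmpcb*, *Pam16*, *Grpel1*, *Grpel2*, *Oxa1l* and *Chchd4*. This gave 41 probe sets of 34 genes, out of 21044 probe sets of 19452 genes tested. The rule goes by gene symbol. A further probe set that names a small Tim gene together with a second gene was left out.

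The cells were proliferating C2C12 (LKO-1) cells kept under 70% confluency. C2C12 is a mouse myoblast line, and LKO-1 is a stable derivative that carries an empty lentiviral vector and grows in puromycin, a background that all samples share. Cytoplasmic lysate was incubated either with the monoclonal antibody 3B1 against CUGBP1 (2 arrays) or with normal IgG (2 arrays), and the recovered RNA was labelled and hybridized to Affymetrix Mouse Gene 1.0 ST arrays. CUGBP1, the product of *Celf1*, binds GU-rich RNA and recruits deadenylases, so the comparison asks which mRNAs associate with it. RNA of the input lysate was not analysed here, so more of a transcript in the lysate and more of it bound cannot be told apart. In a lysate of many cells, fewer cells with a transcript and less of it per cell cannot be told apart either.

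Nearly all mitochondrial proteins are made in the cytosol and imported. Precursors are recognised by receptors of the TOM complex and cross the outer membrane through its channel. Beta-barrel proteins are then inserted by the SAM complex, hydrophobic precursors are escorted by small Tim chaperones to the TIM22 complex, and precursors with a presequence pass the inner membrane through the TIM23 complex, pulled by a motor built around mitochondrial Hsp70. Mitochondria multiply when myoblasts form myotubes, which adds to the demand for import. The nucleotide sequences of these transcripts were not used here.

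Every value is an intensity on the linear scale, expressed in units of its own array's 5th percentile, so a probe set with no transcript reads about 1. The background limit of an array was the 95th percentile of its olfactory and vomeronasal receptor probe sets, which lay at 1.23 and 1.29 for the CUGBP1 IP and at 1.09 and 1.16 for the IgG control. Within groups, log2 values correlated across all tested probe sets with Pearson's r of 0.981 (CUGBP1 IP) and 0.943 (control IgG). Of 8 myoblast markers, 7 were above background on all 4 arrays, and *Myod1*, the muscle determination factor, read 18.80 and 23.21 in the CUGBP1 IP, against 1.77 and 3.30 in the IgG control. None of the 5 markers of other cell types (*Ptprc*, *Epcam*, *Pecam1*, *Alb* and *Gfap*) was above background on all 4 arrays. Of the 34 import genes, 27 were above background on all 4 arrays and *Timm8a2* on none.

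*Tomm34* was the only import transcript that limma called higher in the CUGBP1 IP at an adjusted p under 0.05, and it does not encode a subunit of the TOM channel but a cytosolic cochaperone that binds Hsp70 and Hsp90 and preproteins. It read 5.41 and 7.04 in the CUGBP1 IP, against 1.16 and 1.64 in the IgG control. The groups were well apart, since the lowest CUGBP1 IP value was 3.30 times the highest control IgG value. The signal-to-negative ratio, the mean CUGBP1 IP value divided by the mean control value, was 4.45 and ranked 310 of all tested probe sets. The log2 difference was 2.16 (SE 0.61, limma adjusted p = 0.0356). The percentile of *Tomm34* among all probe sets of the same array, which no scaling of an array can change, was 93.4 and 93.0 in the CUGBP1 IP, against 71.5 and 76.2 in the IgG control.

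With limma and adjustment over all tested probe sets, 1 of the 34 import genes was higher and 0 were lower in the CUGBP1 IP, where 1.94% of all tested genes were higher and 0.134% lower. At an unadjusted p under 0.05, 11 were higher (32.4%, against 28.9% of all genes) and 0 lower. Among genes above background on all 4 arrays, 8 of 27 import genes were higher at that level (29.6%), against 35.2% of all. With arrays scaled to their medians limma called 4 higher, namely *Tomm34*, *Timm10*, *Mtx2* and *Grpel2*, where 6.46% of all genes were called higher. With the replicate number as a block it called 23 higher, where 57.2% of all genes were, but nothing ties these numbers to a shared lysate. Leaving out any of the 4 arrays, or the intensity trend, left 0 calls among the members and 0 among all probe sets, with 0 to 16 members and 955 to 6022 probe sets at an unadjusted p under 0.05 and higher. A fit of 3 arrays has 1 residual degree of freedom.

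The ratio of every import gene was above 1, from 1.03 for *Timm8a2*, which was in the background range throughout, to 4.45 for *Tomm34*, with a median of 1.57. The median over all tested genes was 1.22. Of all 19452 genes 7063 were above background on all 4 arrays, as were 27 of the 34 import genes. Among the genes that were, the median ratio was 1.61 for the import genes and 1.61 for all. The log2 difference of the median gene was 0.29, and that of the median import gene lay 0.42 above it. This order turned round with quantile normalization, under which the median import gene lay 0.15 below the median of all genes and 22 of 34 import genes had a log2 difference below 0, leaving 12 above it (45.1% of all genes were above).

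**Figure D1:**
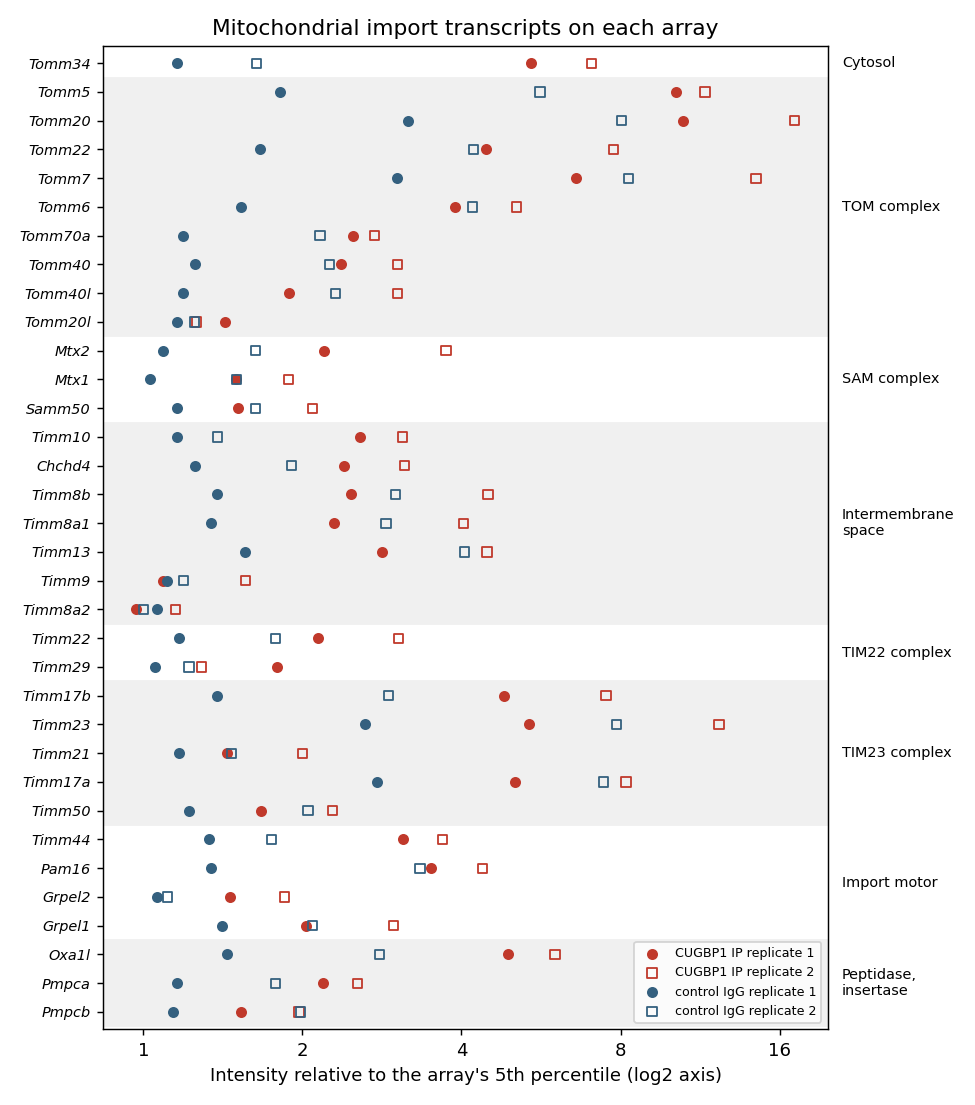
Intensity of the 34 import transcripts (log2 axis, in units of the 5th percentile of the array), with 1 point per array, red for CUGBP1 IP and blue for control IgG, filled for replicate 1 and open for replicate 2. *Tomm34* at the top has both red points (5.41 and 7.04) far right of both blue points (1.16 and 1.64), while in *Timm17a* the open blue point (7.44) lies between the red ones (5.06 and 8.19).

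The control IgG arrays differed from each other, for import transcripts and for others: 39.6% and 57.2% of the tested probe sets lay above background on them. Replicate 2 was higher than replicate 1 for 33 of 34 import genes in control IgG and for 32 of 34 in the CUGBP1 IP. The median import gene read 2.39 and 3.10 in the CUGBP1 IP, against 1.24 and 2.07 in the IgG control. Set against control IgG replicate 1 alone the median ratio was 2.28, and against control IgG replicate 2 alone it was 1.20. The same medians were 2.07 and 1.34 over all genes above background on all 4 arrays, 2.21 and 1.13 over complex I genes, and 1.98 and 1.18 over mitochondrial ribosomal protein genes. For *Timm17a*, *Timm50*, *Timm13* and *Pmpcb* the ratio to control IgG replicate 2 was below 1 (4 of 34 genes, or 11.8%, against 11.2% of all genes). Above background on all 4 arrays, these were 4 of 27 import genes (14.8%), against 4.13% of all such genes. Without that filter, the ratio was below 1 for 9 of 43 complex I genes (20.9%). The same held for 11 of 77 mitochondrial ribosomal protein genes (14.3%) and 0 of 30 other import partners, described below.

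Both CUGBP1 IP arrays lay above both control IgG arrays for 18 of 34 import genes (52.9%), where this held for 67.1% of all genes. Above background on all 4 arrays, it held for 14 of 27 import genes (51.9%), against 79.7% of all such genes. Without that filter it held for 13 of 43 complex I genes (30.2%) and 38 of 77 mitochondrial ribosomal protein genes (49.4%). Among 30 other import partners, described below, it held for 21 (70%). The groups overlapped or tied for 16 of the 34, and for none of the 34 were both CUGBP1 IP arrays below. In the top 5% of ratios over the tested probe sets there were 4 import genes (11.8%), *Tomm34*, *Tomm5*, *Timm17b* and *Oxa1l*. This compares with 4.97% of all genes. Above background on all 4 arrays, it was 4 of 27 import genes (14.8%), against 12.6% of all such genes. The threshold was a ratio of 2.57. The study also took a top 5%, but over its own set of transcripts and with its own threshold, so membership here is not membership in its list. *Tomm34* alone of these 4 genes stayed in the top 5% without control IgG replicate 1, with quantile normalization and with 1 subtracted from each value.

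**Figure D2:**
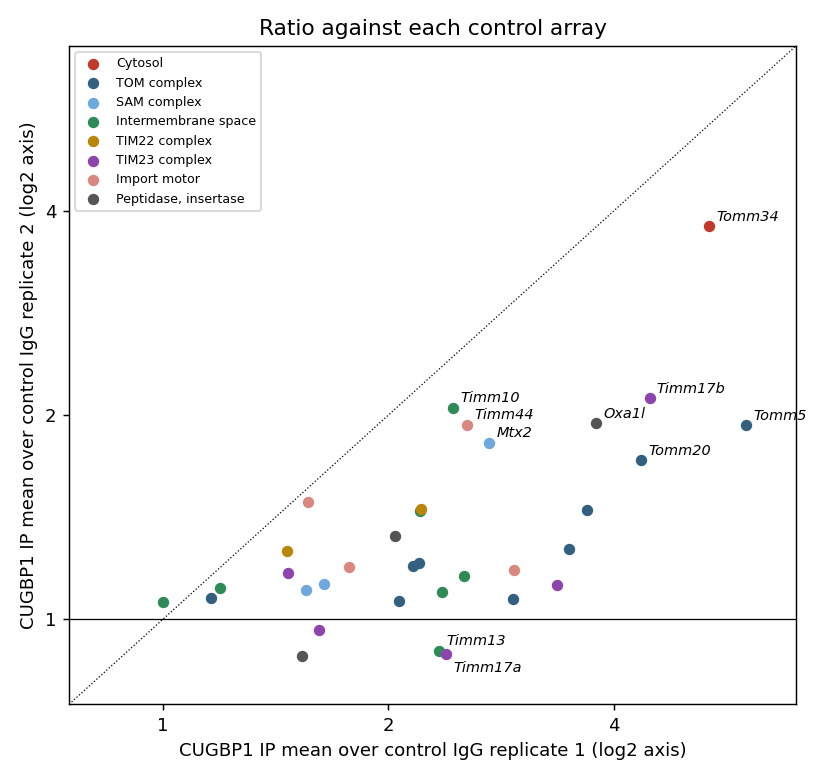
Mean CUGBP1 IP value over control IgG replicate 1 (horizontal) and over control IgG replicate 2 (vertical) for each of 34 import genes, both on log2 axes, coloured by complex, with the dotted line where the ratios are equal. For 21 of 34 points the first ratio is over 1.5 times the second, and all 21 are among the 27 above background on all 4 arrays. The count was 3285 of all 7063 genes above background on all 4 arrays and 3449 of all 19452 genes. It was 33 of 43 complex I genes, 44 of 77 mitochondrial ribosomal protein genes and 14 of 30 other import partners. *Tomm34* has the highest ratio against replicate 2 (3.80, and 5.37 against replicate 1).

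The receptors of the outer membrane were next. *Tomm20*, the receptor for presequences, was the brightest member and read 10.49 and 17.09 in the CUGBP1 IP, against 3.17 and 8.03 in the IgG control (ratio 2.46). The groups did not overlap, but the log2 difference of 1.41 (SE 1.22, limma adjusted p = 0.348) did not pass. Its rank on the array was nearly fixed, at percentiles 96.8 and 97.2 in the CUGBP1 IP, against 97.7 and 97.5 in the IgG control, and with quantile normalization the log2 difference was -0.29. *Tomm22*, the central receptor, read 4.46 and 7.76 in the CUGBP1 IP, against 1.66 and 4.22 in the IgG control. The closest values of the groups were 1.06-fold apart (ratio 2.08, limma adjusted p = 0.265). *Tomm70a*, the receptor for carrier precursors handed over by chaperones, had a ratio of 1.56 (limma adjusted p = 0.200).

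*Tomm20l*, a relative of *Tomm20*, stayed near the background limit, with 1.43 and 1.26 in the CUGBP1 IP, against 1.16 and 1.25 in the IgG control (ratio 1.12, log2 difference 0.16, SE 0.18, limma adjusted p = 0.468). Its log2 difference was -0.13 with arrays scaled to their medians and -0.23 with quantile normalization.

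The channel gene *Tomm40* had a ratio of 1.54 and its relative *Tomm40l* a ratio of 1.41, and neither passed the test (limma adjusted p = 0.228 and 0.284). The small subunits that surround the channel spread more widely. *Tomm5* read 10.20 and 11.56 in the CUGBP1 IP, against 1.81 and 5.63 in the IgG control. The CUGBP1 IP arrays were close together and the control IgG arrays far apart, so that the ratio was 2.92 but 6.01 against replicate 1 and 1.93 against replicate 2. The log2 difference was 1.77 (SE 1.05, limma adjusted p = 0.213). *Tomm7* read 6.60 and 14.44 in the CUGBP1 IP, against 3.02 and 8.28 in the IgG control. Its groups overlapped (ratio 1.86, log2 difference 0.97, SE 1.15, limma adjusted p = 0.479), as did those of *Tomm6* (ratio 1.57, limma adjusted p = 0.345). With quantile normalization the log2 differences of *Tomm7*, *Tomm6*, *Tomm40* and *Tomm40l* were below 0.

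Of the 9 TOM genes, 0 passed the test and 0 had an unadjusted p under 0.05 (28.9% of all genes were higher at that level). The SE grew with intensity, from 0.18 for the dim *Tomm20l* to 1.22 for *Tomm20*. TOM genes are bright, at median percentiles of 90.0 and 89.8 in the CUGBP1 IP, so these shares do not compare like with like. Their median log2 difference was 0.81, against 0.72 for all genes above background on all 4 arrays. Their median ratio was 1.57, and both CUGBP1 IP arrays lay above both control IgG arrays for 6 (66.7%, against 67.1% of all genes). Of the 9 TOM genes, 8 were above background on all 4 arrays, and among all such genes that share was 79.7%. In the SAM complex, *Mtx2*, one of the metaxins that build it with the beta-barrel insertase *Samm50*, read 2.20 and 3.74 in the CUGBP1 IP, against 1.09 and 1.63 in the IgG control. The control IgG replicate 1 value was not above background, and the groups did not overlap (ratio 2.18, log2 difference 1.11, SE 0.38, limma adjusted p = 0.0791, and 0.0121 with arrays scaled to their medians). *Mtx1* and *Samm50* had ratios of 1.34 and 1.29, and the control IgG replicate 2 value of each reached into the range of the CUGBP1 IP arrays.

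**Figure D3:**
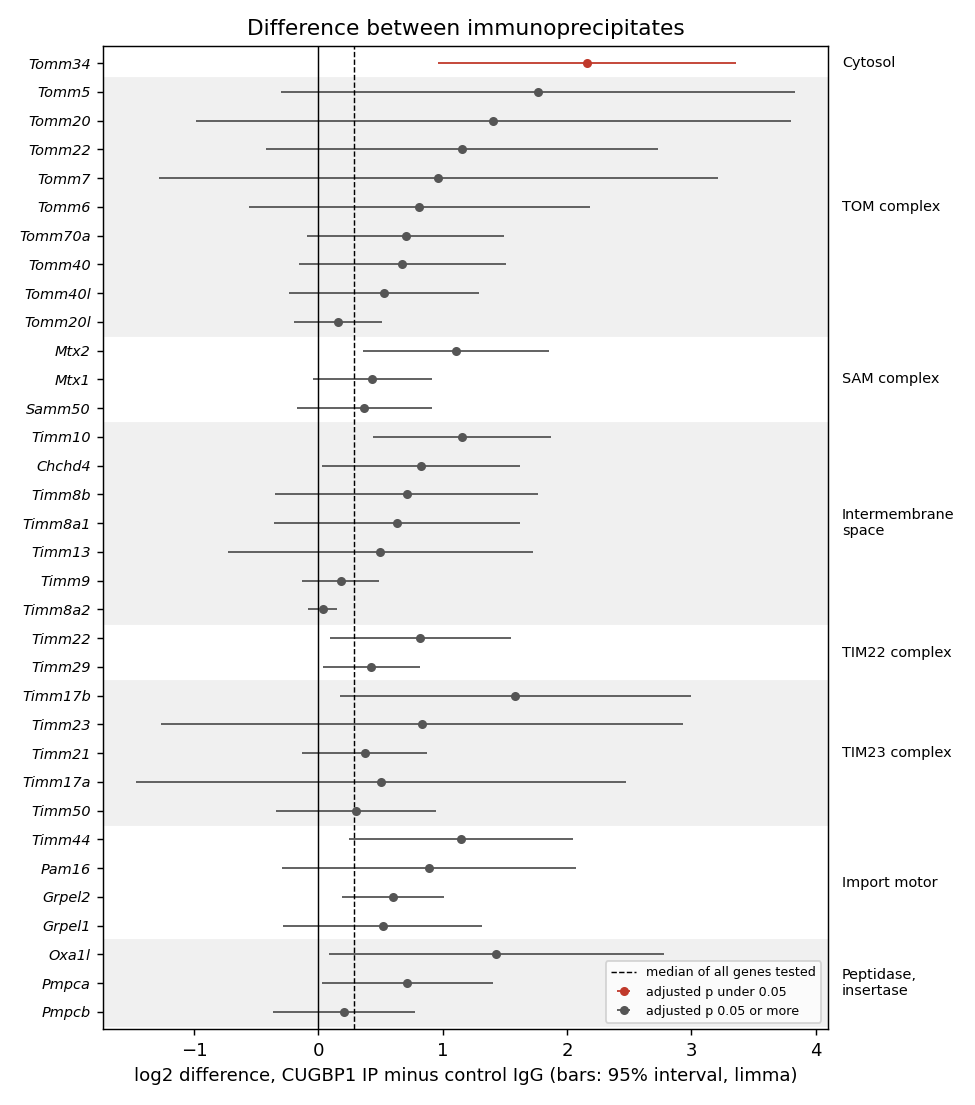
Log2 difference (CUGBP1 IP minus control IgG) of each import gene with its 95% interval from limma, grouped by complex, with the dashed line at the median of all tested genes (0.29). *Tomm34* (2.16, in red) is the only gene with an adjusted p under 0.05, and the bright transcripts *Tomm20*, *Tomm7*, *Timm23*, *Tomm5* and *Timm17a* have the widest intervals.

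The small chaperones of the intermembrane space work as hexamers, and 0 of their genes passed the test. *Timm10* read 2.57 and 3.09 in the CUGBP1 IP, against 1.16 and 1.38 in the IgG control. The lowest CUGBP1 IP value was 1.86 times the highest control IgG value, the second widest gap among the import genes after *Tomm34*, and the ratio of 2.23 held against either control array (2.44 and 2.05). Its log2 difference was 1.16 (SE 0.36, limma adjusted p = 0.0560, and 0.00323 with arrays scaled to their medians). *Timm9*, its partner in the hexamer, read 1.09 and 1.56 in the CUGBP1 IP, against 1.11 and 1.19 in the IgG control, so 1 of its CUGBP1 IP values was in the background range and the groups overlapped (ratio 1.15).

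*Timm13*, which forms a hexamer with *Timm8a1* or *Timm8b* proteins, read 2.83 and 4.47 in the CUGBP1 IP, against 1.56 and 4.06 in the IgG control. The overlap was wide, with a ratio of 1.30 (limma adjusted p = 0.502) and a log2 difference of -0.64 with quantile normalization. *Timm8a1*, whose human counterpart is mutated in deafness-dystonia syndrome, and *Timm8b* had ratios of 1.5 and 1.59 with overlapping groups. *Timm8a2*, a further copy, read 0.97 and 1.15 in the CUGBP1 IP, against 1.06 and 1.00 in the IgG control, all in the background range, so that its values have no order. *Chchd4*, the oxidoreductase that folds these chaperones by forming disulfides, had a ratio of 1.75 (limma adjusted p = 0.165).

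At the inner membrane, the ratio was 1.76 for *Timm22*, the channel for carrier proteins (limma adjusted p = 0.145), and 1.36 for *Timm29*, a subunit beside it (limma adjusted p = 0.152). The groups of both genes were apart, by 1.20-fold for *Timm22* and 1.06-fold for *Timm29*. *Timm29* was above background on 2 arrays only, 1 in each group.

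In the TIM23 channel, the alternative forms of 1 subunit had unlike values. *Timm17b* read 4.81 and 7.51 in the CUGBP1 IP, against 1.38 and 2.91 in the IgG control. The groups did not overlap, and the log2 difference was 1.58 (SE 0.72, limma adjusted p = 0.147, ratio 2.87). *Timm17a*, which encodes the alternative form of the same channel subunit, read 5.06 and 8.19 in the CUGBP1 IP, against 2.77 and 7.44 in the IgG control. These groups overlapped (ratio 1.30, log2 difference 0.50, SE 1.00, limma adjusted p = 0.670), and a second probe set of the gene had a ratio of 1.43. *Timm17a* ranked at percentiles 92.9 and 94.1 in the CUGBP1 IP, against 97.3 and 97.3 in the IgG control, and with quantile normalization limma called it lower (log2 difference -1.02, adjusted p = 0.0470, with 0.072% of all genes lower).

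*Timm23*, the channel-forming subunit, was matched by 4 probe sets, of which 2 pairs held identical values, so the gene counts once and its signal may be shared with near-identical copies. It read 5.36 and 12.29 in the CUGBP1 IP, against 2.63 and 7.86 in the IgG control. The groups overlapped and the ratio was 1.68 (1.79 at the other pair of probe sets, limma adjusted p = 0.509). *Timm50*, the receptor that guards the channel, and *Timm21*, whose yeast counterpart links the channel to the respiratory chain, had ratios of 1.21 and 1.30 with overlapping groups.

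The difference between *Timm17b* and *Timm17a* was taken within each array, where a factor common to the array cancels. An unlike spread of values between arrays does not cancel. The 95th percentile of the array was 9.37 and 13.04 in the CUGBP1 IP, against 2.36 and 5.96 in the IgG control. The log2 ratio of *Timm17b* to *Timm17a* was 1.08 higher in the CUGBP1 IP than in control IgG, and every CUGBP1 IP array exceeded every control IgG array by 0.88 to 1.28. Of 7 pairs of related members compared in this way, chosen after their values were seen, 5 had groups that did not overlap. The shift was 0.97 for *Timm10* over *Timm9*, 0.67 for *Mtx2* over *Mtx1*, 0.51 for *Pmpca* over *Pmpcb* and 0.08 for *Timm8b* over *Timm8a1*. For *Grpel2* over *Grpel1* (0.08) and *Tomm40l* over *Tomm40* (-0.15) the groups overlapped. An exact two-sided permutation test of 2 against 2 arrays cannot go below p = 0.33, which these 5 pairs reached (adjusted p = 0.467 over the 7 pairs). These shifts are therefore a description. *Timm9*, *Mtx1*, *Mtx2* and *Grpel2* each had at least 1 value not above background, so the shifts that involve them are not exact.

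In the import motor, *Timm44*, the scaffold that tethers Hsp70 to the channel, read 3.10 and 3.68 in the CUGBP1 IP, against 1.33 and 1.75 in the IgG control. Its groups were 1.77-fold apart at their closest (ratio 2.20, log2 difference 1.15, SE 0.46, limma adjusted p = 0.117). *Pam16*, which restrains the J protein of the motor, had a ratio of 1.69 at its brighter probe set, where the groups were apart by 1.05-fold, and 1.46 at the other, where they overlapped. *Grpel2*, a nucleotide exchange factor, read 1.46 and 1.85 in the CUGBP1 IP, against 1.06 and 1.11 in the IgG control. Neither control value was above background, so it was at least 1.46-fold higher by the mean log2 values against the upper end of the background range (limma adjusted p = 0.0812, and 0.0485 with arrays scaled to their medians). *Grpel1*, the other exchange factor, had a ratio of 1.43 with overlapping groups (limma adjusted p = 0.311).

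Inside the matrix, *Pmpca* and *Pmpcb*, the subunits of the peptidase that removes presequences, had ratios of 1.61 and 1.12. *Pmpcb* read 1.53 and 1.97 in the CUGBP1 IP, against 1.14 and 1.98 in the IgG control, with overlapping groups (log2 difference 0.21, SE 0.29, limma adjusted p = 0.543), and its log2 difference was -0.08 with arrays scaled to their medians and -0.33 with quantile normalization. *Oxa1l*, which inserts proteins into the inner membrane from the matrix side, read 4.89 and 6.01 in the CUGBP1 IP, against 1.44 and 2.80 in the IgG control. The groups did not overlap, and the ratio of 2.57 lay just inside the top 5%, at rank 1051 of 1053. Its log2 difference was 1.43 (SE 0.69, limma adjusted p = 0.158). The nearest member outside was *Tomm20*, at 2.46.

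From a list of 32 partners of import, folding, processing and cristae assembly, 30 were measured, of which 0 passed the test in either direction, 8 (26.7%) were higher at an unadjusted p under 0.05, where 28.9% of all genes were, and 0 were in the top 5% (against 4.97%). Their median ratio was 1.54, from 1.13 for *Dnajc11* to 2.33 for *Mtch1*, a carrier-like protein of the outer membrane. The ratio of *Hspa9*, the mitochondrial Hsp70 of the motor, was 2.02 (limma adjusted p = 0.209) and that of *Dnajc19*, its J protein, was 1.34 (limma adjusted p = 0.258).

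Among other nuclear-encoded mitochondrial transcripts, 43 *Nduf* genes of complex I (subunits and assembly factors) had a median ratio of 1.45 with 0 called higher, 2 higher at an unadjusted p under 0.05 (4.65%), and 1 in the top 5% (*Ndufa11*, ratio 2.98). The 77 mitochondrial ribosomal protein genes had a median ratio of 1.46, with 14 higher at an unadjusted p under 0.05 (18.2%), 2 in the top 5% (2.60%) and 2 called higher, *Mrps5* and *Mrps17* (ratios 2.37 and 3.09, limma adjusted p = 0.0314 and 0.0372). The share called was thus 1 of 34, 0 of 30, 0 of 43 and 2 of 77 in these groups, against 1.94% of all genes, and no test between the groups was made. Because the SE grew with intensity, shares at a fixed p also depend on how bright a group is. *Tomm34* had a higher ratio than any measured gene of the partner or complex I lists, and *Mrpl10* of the ribosomal list a higher one still (6.97, limma adjusted p = 0.0824).

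**Figure D4:**
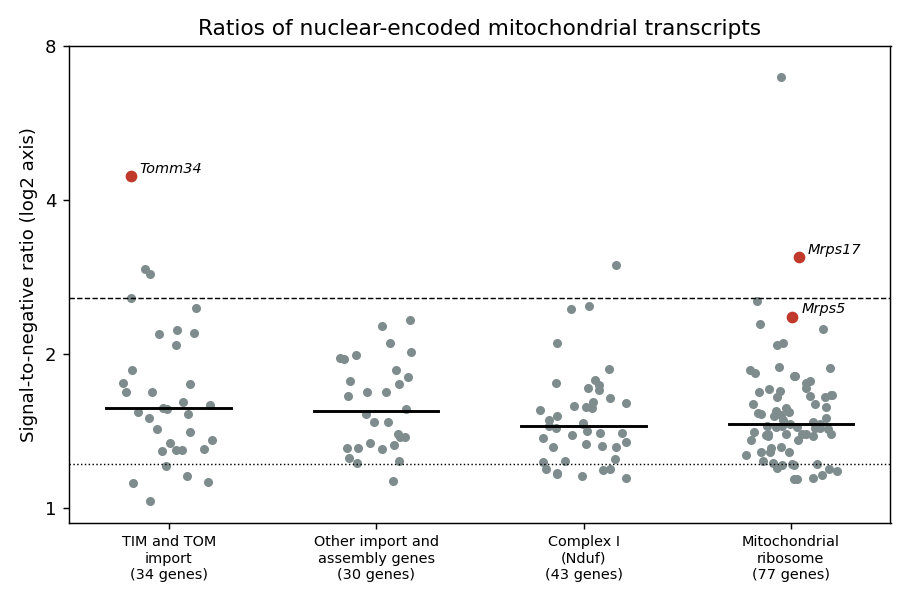
Signal-to-negative ratio (log2 axis) of each gene in the import group and in 3 other groups of mitochondrial genes, with 1 point per gene, bars at the group medians (1.57, 1.54, 1.45 and 1.46), the dashed line at the top 5% (2.57) and the dotted line at the median of all genes (1.22). The genes called higher by limma, in red, are *Tomm34*, *Mrps17* and *Mrps5*.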

How the data were processed

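The deposited table holds linear array intensities, each scaled by the authors to the 5th percentile of its array, and that percentile was 1.00 on every array of the table. How probes were summarised, and whether background was subtracted, is not given in the sources used here. Of 25175 probe sets, the 21044 paired by a platform annotation with exactly 1 gene were tested. Symbols were updated by gene ID through a RefSeq table of GRCm38.p6, used for names only, which changed 0 member symbols. Where a gene had several probe sets, the brightest on average stands for it.

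Groups and replicate numbers came from the sample titles. Nothing says that replicates came from separate cultures, so p-values rest only on the spread between these samples, which may be technical. In the main fit this was the spread across probe sets of similar intensity. The number of arrays limits the precision. Log2 values were compared with limma 3.58.1 in R 4.3.3 (lmFit and trended eBayes, two-sided tests). P-values were adjusted by Benjamini-Hochberg over all tested probe sets, at a threshold of 0.05. In the main fit the moderated SE was set by the intensity trend alone. The spread of a gene's own replicates therefore did not enter its SE or p. Positive differences mean a higher value in the CUGBP1 IP. The fit was tried on simulated data, with independent noise smaller than the estimated residual spread. It therefore does not show how the fit performs at the spread of these arrays.

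The members and lists were chosen with earlier results of these data known. Full values were given for called members, those in the top 5%, the 3 highest and 3 lowest ratios and the 3 brightest. Other members given in full were singled out after their values were seen. Alternatives were scaling to medians, quantile normalization, an offset of 1, no intensity trend, a background filter, a replicate block and leaving out each array. The percentiles within arrays, the ratios to each control array and the other probe sets of a gene were added after seeing the data.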

Additional observations from a re-analysis of the deposited data

How the results depend on the processing

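Over the alternatives tried, the number of import genes called higher, 1 in the report, was 4 with arrays scaled to their medians (6.46% of all genes), 3 with an offset of 1 (*Tomm34*, *Timm10* and *Mtx2*, with 3.62% of all genes) and 0 without the intensity trend (6 at an unadjusted p under 0.05). It was 1, *Tomm34*, with quantile normalization and with the background filter. Leaving out each array in turn gave 0 to 0, with 0 to 16 at an unadjusted p under 0.05. With the replicate block, which uses replicate numbers that nothing ties to a shared lysate, 23 import genes and 57.2% of all genes were called higher. The correlation of replicate 2 minus replicate 1 between the groups, across all tested probe sets, was 0.64, with only 2 arrays in each group. With quantile normalization 1 gene, *Timm17a*, was lower, where the report has 0.

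The median ratio of 1.57 was 0.883 with quantile normalization (0.988 for all genes), 2.26 with 1 subtracted from each value (2.14 for all genes) and 1.20 to 2.28 with an array left out. The number in the top 5%, 4 in the report, was 1 to 4 with an array left out and 1, *Tomm34*, with the background filter, which raised the threshold to a ratio of 4.01. It was 3 with quantile normalization (*Mtx2*, *Timm10* and *Tomm34*) and 3 with 1 subtracted (*Grpel2*, *Timm10* and *Tomm34*).

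Several log2 differences turned negative. With arrays scaled to their medians *Pmpcb* had -0.080, *Timm8a2* -0.25, *Timm9* -0.11 and *Tomm20l* -0.13. With quantile normalization 22 did. In the TOM and SAM complexes these were *Tomm20* (-0.29), *Tomm20l* (-0.23), *Tomm22* (-0.18), *Tomm40* (-0.17), *Tomm40l* (-0.21), *Tomm6* (-0.39), *Tomm7* (-0.67), *Tomm70a* (-0.059) and *Samm50* (-0.19). In the intermembrane space they were *Chchd4* (-0.016), *Timm13* (-0.64), *Timm8a1* (-0.35), *Timm8a2* (-0.10), *Timm8b* (-0.31) and *Timm9* (-0.15). Further in they were *Timm17a* (-1.02), *Timm21* (-0.20), *Timm23* (-0.72), *Timm50* (-0.39), *Pam16* (-0.17), *Grpel1* (-0.41) and *Pmpcb* (-0.33). The cause was not tested. Quantile normalization gives every array the same spread of values. Without CUGBP1 IP replicate 2, *Timm8a2* had -0.086 and *Timm9* -0.076. Without control IgG replicate 1, *Pmpcb* had -0.19, *Timm13* -0.19, *Timm17a* -0.21 and *Timm50* -0.071, and without control IgG replicate 2 *Timm8a2* had -0.0052. With an array left out, *Timm8a2* ran up to 0.16, *Timm9* to 0.44, *Pmpcb* to 0.61, *Timm13* to 1.19, *Timm17a* to 1.22 and *Timm50* to 0.68. The log2 difference of *Tomm34*, 2.16 in the report, was 1.18 with quantile normalization, 1.59 with an offset of 1, 1.87 with arrays scaled to their medians and 1.91 to 2.41 with an array left out, and its adjusted p was 0.00235 to 0.663 over the alternatives. Signal over background limits the 7 import genes that were not above background on all 4 arrays, whose differences are compressed towards 0. Other dim members may be compressed as well. With 1 subtracted from each value the median ratio of the 34 was 2.26, and *Timm10*, above background on all 4 arrays, was in the top 5%.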
